A study of Mus musculus with 22 samples.

Results

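The core circadian feedback loop was followed through 10 genes, Arntl (also called Bmal1), Clock, Npas2, Per1, Per2, Per3, Cry1, Cry2, Nr1d1 and Nr1d2. The samples were ventricles of neonatal mice after banding of the pulmonary artery or a Sham operation. The 10 genes were selected by their symbols, matched to the Ensembl identifiers of the deposited tables through the GENCODE annotation of mm10, out of 49670 genes in the right ventricular table and 49671 in the left ventricular table. The set was proposed because Per1 was already known to be high after banding in these samples, so the difference of Per1 between banded and Sham-operated mice chose the set. That difference is described here without a test. Gene coordinates are those of GENCODE on mm10, and all 10 genes are protein-coding. The other 9 genes were named for their place in the loop, but with results of the same contrast known, so counts of them are not support for a response of the clock.

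Bulk RNA was sequenced from the right ventricle (RV) and the left ventricle (LV) of CD1 mice, an outbred strain. Banding of the pulmonary artery in the newborn (nPAB), sized here with a 30G needle and meant to load the RV by narrowing its outflow, or a Sham operation was done on postnatal day 1, and hearts were taken 7 days later. The groups were RV nPAB (6 libraries), RV Sham (5), LV nPAB (6) and LV Sham (5), and every mouse gave both ventricles by the number in the sample titles. All 22 libraries share the CD1 background, the day of surgery, the age at harvest and batch label 1. The labels give neither litter nor the hour at which hearts were taken, so clock phase was not measured directly, and p-values measure the spread between these mice.

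In mammalian cells, the proteins ARNTL and CLOCK, or NPAS2 in place of CLOCK, pair up and switch on genes that carry E-boxes in their promoters. Among those genes are the Per and Cry genes, whose proteins return to the nucleus and repress ARNTL and CLOCK, and Nr1d1 and Nr1d2, whose proteins (REV-ERB alpha and beta) repress Arntl and Npas2 through ROR elements. In a running clock of the adult mouse heart, Arntl and Npas2 transcripts therefore peak at about the opposite time of day from Nr1d1 and Nr1d2, and the 3 Per transcripts follow one another closely. Per1 can also be induced directly, outside this cycle, by glucocorticoids and by cAMP signalling.

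Libraries held 7.11 to 11.3 M reads in genes. The Xist and Ddx3y levels gave the same sex to both ventricles of 9 of 11 mice, while the RV and LV libraries labelled nPAB mouse 6, and those labelled nPAB mouse 7, were of different sexes. Comparisons within a ventricle do not use the pairing of libraries, and tests of the members across ventricles are given with and without these 2 mice. Female libraries numbered 3 of 6 in RV nPAB, 2 of 5 in RV Sham, 3 of 6 in LV nPAB and 2 of 5 in LV Sham. The ventricular cardiomyocyte markers Myl2, Irx4 and Myl3 were detected in all groups, and their sum, nearly all of it from Myl2 and Myl3, had medians of 28346, 26369, 30925 and 28523 CPM (reads per M reads in genes) in RV nPAB, RV Sham, LV nPAB and LV Sham. Irx4, a ventricular transcription factor, averaged 281 normalized counts in RV nPAB and 387 in RV Sham, with all 6 nPAB libraries below every Sham library. It fell by 0.47 on the log2 scale (limma adjusted p = 0.0179), and in the LV its log2 difference was -0.25 (adjusted p = 0.282). The atrial markers Myl7, Sln and Myl4, summed, ran from 78.3 to 1090.1 CPM in RV nPAB and from 16.4 to 292 CPM in RV Sham, and from 39.3 to 236 CPM in LV nPAB and from 55.1 to 169.9 CPM in LV Sham. The medians of that sum were 372, 197, 99.7 and 136 CPM in RV nPAB, RV Sham, LV nPAB and LV Sham. The log2 differences of the 3 markers were 1.33 to 2.11 in the RV and -0.76 to 0.51 in the LV. None of the 3 atrial markers passed the test in either ventricle, and the part of atrial tissue or of lower Irx4 in the RV values was not tested.

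Short stretches at the starts of the members were searched for the letters of the elements through which the loop is wired. RefSeq windows (GRCm38.p6) of 250 bases before to 50 bases after each annotated start were matched for 9 of the 10 genes, all but Per2, with 13 windows in all. They were searched on both strands for the E-box CACGTG (found in 7.15% of the 32851 windows of all genes), the E-box-like CACGTT (4.68%), the ROR element TAGGTCA (2.61%), the D-box TTATGTAA (0.938%), the cAMP response element TGACGTCA (1.79%) and its 6-base core TGACGT (7.51%), which the whole element also holds. The stretches printed here are those of Per1, of Nr1d1 and Per3, which passed the test in the RV, and of Cry1, which holds both kinds of E-box; capitals mark the matches, and each runs from at most 30 bases before the first match to at most 30 bases after the last.
Per1, upstream start, chr11:69098753-69098818, + strand: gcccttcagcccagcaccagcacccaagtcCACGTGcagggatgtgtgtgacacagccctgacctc
Per1, downstream start, chr11:69099990-69100055, + strand: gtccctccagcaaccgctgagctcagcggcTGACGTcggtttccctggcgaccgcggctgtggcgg
Nr1d1, chr11:98775378-98775435, - strand: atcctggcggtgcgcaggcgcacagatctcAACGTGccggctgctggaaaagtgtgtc
Per3, chr4:151044786-151044900, - strand: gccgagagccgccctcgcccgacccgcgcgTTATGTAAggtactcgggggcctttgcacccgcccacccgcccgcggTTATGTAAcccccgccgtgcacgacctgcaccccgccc
Cry1, chr10:85185079-85185163, - strand: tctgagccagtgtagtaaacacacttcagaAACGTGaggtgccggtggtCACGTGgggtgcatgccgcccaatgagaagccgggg

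Per1 therefore had an E-box 166 bases before its upstream start and the core of a cAMP response element 132 bases before its downstream start. It was the only match to that core among the 9 members with a window, and Per2 was not searched. Per3 had D-boxes 205 and 158 bases before its start, a motif read by DBP, TEF and HLF as activators and by NFIL3 as a repressor. The E-box-like matches of Nr1d1 and Cry1, printed as AACGTG, are CACGTT on the other strand. Cry2 also held an E-box-like match, and the second window of Arntl a ROR element 30 bases after the start. A match is a description of these letters only.

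Per1 (ENSMUSG00000020893, chr11:69095217-69109960, + strand), a repressor of the loop, had the largest difference of the 10 genes in both ventricles. In RV nPAB its lowest, median and highest normalized counts were 188, 315 and 388, against 114, 58.1, 84.9, 93.4 and 48.1 in the 5 RV Sham libraries. In LV nPAB they were 279, 322 and 406, against 106, 53.1, 85.3, 75.3 and 61.4 in LV Sham. Every nPAB library lay above every Sham library of its ventricle. The log2 difference on the log2(value + 1) scale, nPAB minus Sham, was 1.96 ± 0.23 (SE, n = 6 and 5) in the RV, a fold of 3.89, and 2.14 ± 0.17 in the LV, a fold of 4.41. Under 21 other settings of the processing it ran from 1.80 to 2.10 in the RV and from 2.02 to 2.27 in the LV. These values chose the set and carry no test. As in any bulk sample, a higher level in the same cells and more cells that express the gene cannot be told apart.

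Per2 (ENSMUSG00000055866, chr1:91415982-91459324, - strand), the second repressor of the PER family, was also high after banding. RV nPAB libraries had 163, 251 and 268 normalized counts (lowest, median, highest), against 176, 74.5, 70.6, 103 and 86.9 in RV Sham. LV nPAB libraries had 136, 193 and 259.7, against 159.7, 76.1, 67.0, 86.1 and 31.2 in LV Sham. The groups overlapped in each ventricle through nPAB mouse 10, the lowest of its group in both, and Sham mouse 9, the highest of its group in both. Per2 rose by 1.28 ± 0.21 on the log2 scale in the RV (SE; adjusted p = 2.58e-04, limma with Benjamini-Hochberg adjustment over all genes) and by 1.39 ± 0.31 in the LV (adjusted p = 0.0132). The LV call was lost without nPAB mice 6 and 7, with a log2 difference of 1.43 and an adjusted p of 0.0508.

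Per3 (ENSMUSG00000028957, chr4:151003652-151044665, - strand), the third PER gene, did not follow Per1 and Per2. RV nPAB libraries had 102, 153 and 219 normalized counts, against 233, 317, 195, 194 and 194 in RV Sham, and 5 of the 6 nPAB libraries lay below every Sham library. LV nPAB libraries had 135, 165 and 221, against 238, 259, 132, 145 and 154 in LV Sham, with groups that overlapped throughout. In the RV Per3 fell by 0.56 ± 0.19 on the log2 scale (SE; limma adjusted p = 0.0397), and in the LV the log2 difference was -0.10 ± 0.18 (adjusted p = 0.781). The RV call rested on single libraries. Without Sham mouse 10, the highest, the adjusted p was 0.123, and without Sham mouse 9 or nPAB mouse 5, 6, 10 or 11 it was 0.0779, 0.0626, 0.0847, 0.0849 or 0.0533. It was 0.0575 with no filter on low values and 0.0826 without the variance trend. Per3 lies within the bounds of Camta1 on the same strand, with 0 exonic bases shared.

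Cry1 (ENSMUSG00000020038, chr10:85131700-85185064) and Cry2 (ENSMUSG00000068742, chr2:92403646-92434043), the partners of the PER proteins in repression, did not pass the test in either ventricle. Cry1 averaged 126 ± 25.8 normalized counts in RV nPAB and 155 ± 29.9 in RV Sham (SD, n = 6 and 5), and 146 ± 37.0 in LV nPAB and 165 ± 17.7 in LV Sham. Its log2 differences were -0.29 ± 0.18 (SE; limma adjusted p = 0.264) in the RV and -0.21 ± 0.16 (adjusted p = 0.468) in the LV. Cry2 averaged 133 ± 21.6 in RV nPAB and 161 ± 31.5 in RV Sham, and 149 ± 27.9 in LV nPAB and 147 ± 28.0 in LV Sham. Its log2 differences were -0.27 ± 0.16 (adjusted p = 0.260) and 0.02 ± 0.17 (adjusted p = 0.958). In the RV, intervals of 2 SE ran from -0.65 to 0.06 for Cry1 and from -0.60 to 0.06 for Cry2, and ended below that of Per2 (0.87 to 1.69).

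**Figure D1:**
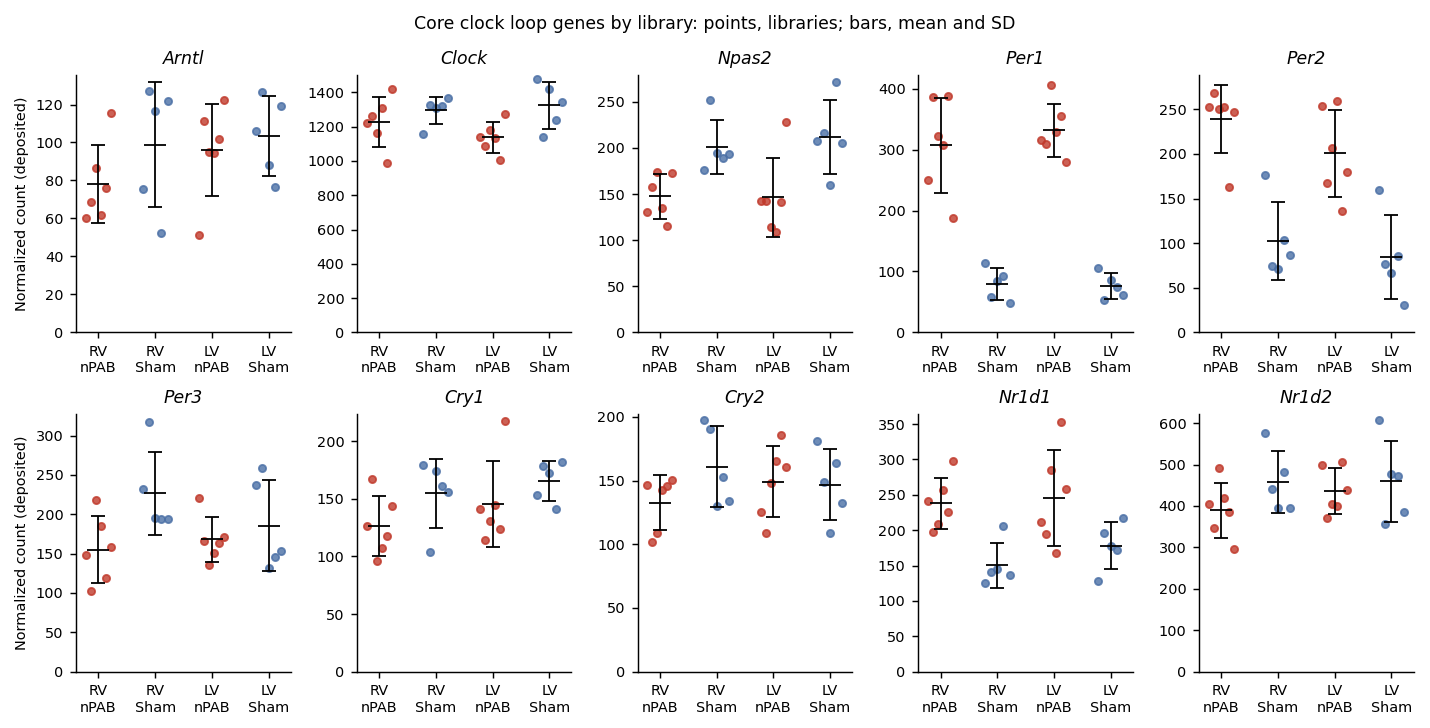
Deposited normalized counts of the 10 core loop genes (vertical axes, each from 0) in RV nPAB, RV Sham, LV nPAB and LV Sham libraries; points are libraries and bars the mean and SD. Per1 separates all nPAB libraries from all Sham libraries in both ventricles and Npas2 does so in the RV only, while the groups of every other gene overlap.

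Nr1d1 (ENSMUSG00000020889, chr11:98767932-98775333, - strand), the repressor of Arntl that is itself switched on through E-boxes, was higher after banding in the RV. RV nPAB libraries had 198, 233 and 298 normalized counts (lowest, median, highest), against 125, 140.3, 144, 206 and 136 in RV Sham. All nPAB libraries but mouse 6 lay above every Sham library, and Sham mouse 12 was the Sham library that overlapped. Nr1d1 rose by 0.67 ± 0.15 on the log2 scale (SE; limma adjusted p = 0.0035), a fold of 1.59. LV nPAB libraries had 168, 235 and 353, against 129, 196, 178, 172 and 217 in LV Sham, with a log2 difference of 0.43 ± 0.18 that did not pass (adjusted p = 0.142). Nr1d1 shares 263 exonic bases with Thra, a thyroid hormone receptor gene on the opposite strand, and the sources used here do not state a strand setting for the counting. Thra went the other way, with log2 differences of -0.30 (adjusted p = 0.0091) in the RV and -0.29 (adjusted p = 0.0516) in the LV.

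Nr1d2 (ENSMUSG00000021775, chr14:18204054-18239127), which encodes the related repressor REV-ERB beta, did not pass in either ventricle. It averaged 390.1 ± 66.4 normalized counts in RV nPAB and 458 ± 75.5 in RV Sham (SD), and 436 ± 55.9 in LV nPAB and 459.8 ± 97.5 in LV Sham. The log2 differences were -0.23 ± 0.13 (SE; limma adjusted p = 0.216) in the RV and -0.06 ± 0.13 (adjusted p = 0.817) in the LV. The RV interval of 2 SE, -0.49 to 0.02, did not reach the 0.37 to 0.96 of Nr1d1.

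Of the activators, Arntl (ENSMUSG00000055116, chr7:113207465-113314126) showed no difference that passed the test. RV nPAB libraries had 60.1, 72.2 and 116 normalized counts (lowest, median, highest), against 75.4, 127, 117, 52.5 and 122 in RV Sham, and LV nPAB libraries 51.2, 98.4 and 122, against 106, 127, 88.3, 76.4 and 119 in LV Sham. The groups overlapped in both ventricles, since both nPAB and Sham mice held values near the top and the bottom of the range. The log2 differences were -0.30 ± 0.24 (SE; limma adjusted p = 0.425) in the RV and -0.13 ± 0.22 (adjusted p = 0.763) in the LV. Arntl had 51 to 147 reads per library, and its interval of 2 SE in the RV, -0.78 to 0.19, includes the difference seen for Npas2.

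Npas2 (ENSMUSG00000026077, chr1:39193731-39363236), which can take the place of Clock, was lower after banding. RV nPAB libraries had 115, 146 and 174 normalized counts, against 176, 252, 194, 189 and 194 in RV Sham, and the groups did not overlap, though by a margin of about 2 counts. LV nPAB libraries had 109, 142 and 229, against 207, 216, 159, 271 and 206 in LV Sham, where nPAB mouse 11 stood among the Sham libraries. Npas2 fell by 0.45 ± 0.15 on the log2 scale in the RV (SE; limma adjusted p = 0.0355), and its log2 difference in the LV was -0.55 ± 0.18 (adjusted p = 0.0641). The RV call was lost without nPAB mouse 5, 8 or 10 (adjusted p = 0.0702, 0.0620 or 0.0782) or without Sham mouse 10, 11, 12 or 13 (adjusted p = 0.105, 0.0557, 0.0527 or 0.0581), and with no filter on low values (adjusted p = 0.0764). The LV difference passed without nPAB mouse 11 (adjusted p = 0.0102) or without Sham mouse 11 (adjusted p = 0.0469), and with DESeq2 on whole reads (adjusted p = 0.0470).

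Clock (ENSMUSG00000029238, chr5:76209868-76304792), which encodes the main partner of ARNTL, averaged 1227 ± 146 normalized counts in RV nPAB and 1295 ± 80.8 in RV Sham (SD), and 1137 ± 90.5 in LV nPAB and 1324 ± 137 in LV Sham. The log2 differences were -0.08 ± 0.09 (SE; limma adjusted p = 0.549) in the RV and -0.22 ± 0.08 (adjusted p = 0.112) in the LV. Clock was the member with the most reads, 943 to 1645 per library, and its values varied least between mice, with coefficients of variation of 6.24% to 11.9% within the 4 groups.

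In count, 4 of the 9 genes other than Per1 passed in the RV, with Per2 and Nr1d1 higher and Npas2 and Per3 lower. Among all 13660 genes tested in the RV 22.0% passed, 11.1% higher and 10.8% lower. In the LV 1 of the 9 passed, Per2, which was higher, against 9.31% of 13528 genes, 4.76% higher and 4.55% lower. Besides Per1, groups did not overlap for Npas2 in the RV, against 12.9% of all genes, and for none of the 9 in the LV, against 6.53%. The median log2 difference of the 9 genes other than Per1 was -0.27 in the RV and -0.10 in the LV, beside 0.00 and -0.01 for the whole of the genes tested. Since these contrasts chose the set, nothing is read from these counts.

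**Figure D2:**
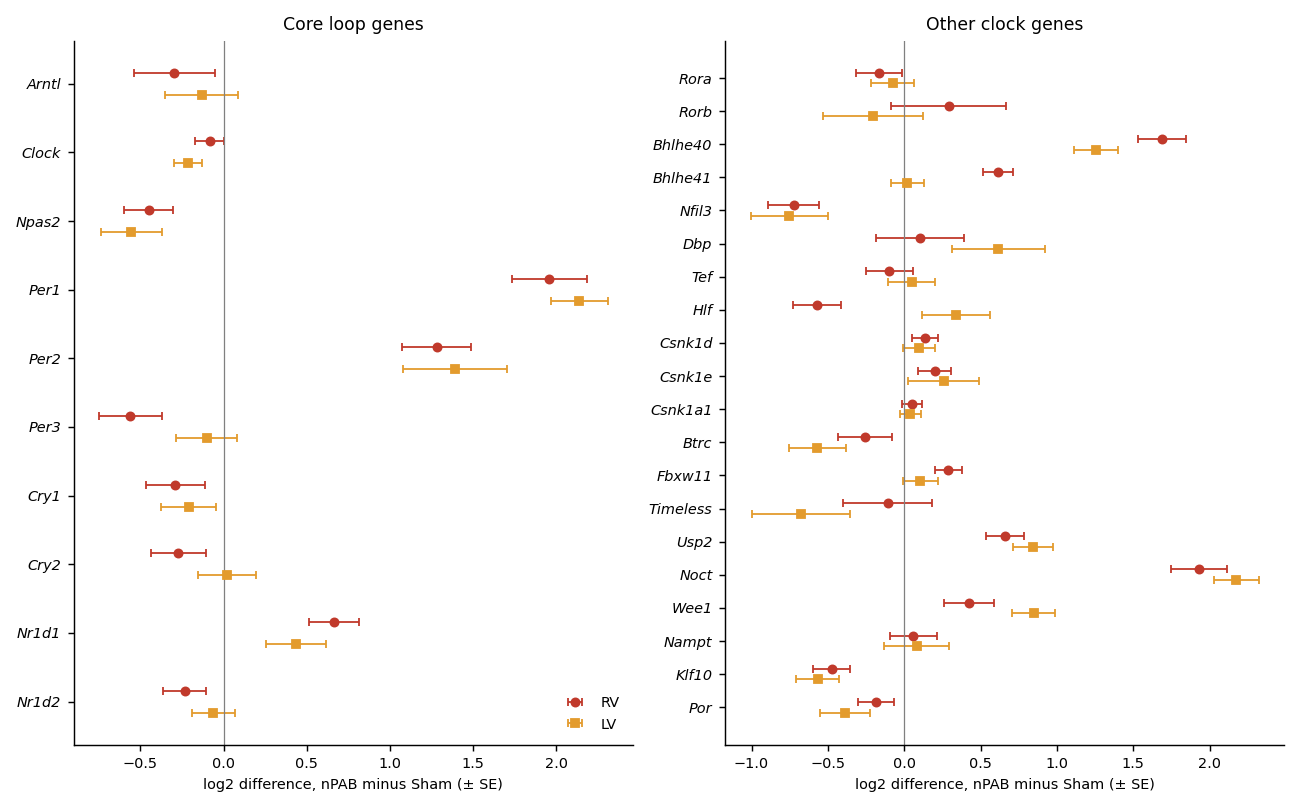
Log2 differences, nPAB minus Sham, with SE (horizontal axes) for the 10 core loop genes (left) and the 20 other clock genes tested (right), in the RV (circles) and the LV (squares). Per1 and Per2 lie above 1 in both ventricles, while the other core genes lie between -0.56 and 0.67; Bhlhe40 and Noct stand highest among the other clock genes.

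The response of the RV was set against that of the LV as the difference between ventricles within a mouse, nPAB minus Sham. The set was not chosen by this contrast itself. Per1, however, drew attention by a rise in both ventricles, a choice that favours a small difference between them. No member passed, and of 13364 genes 1 did, 0.00748% (limma; 1474 genes were under an unadjusted p of 0.05, and edgeR called 137 and DESeq2 251). For Per1 the difference was -0.18 ± 0.17 on the log2 scale (SE; adjusted p = 0.749), with a 2-SE interval of -0.53 to 0.17. For Per2 it was -0.11 ± 0.27 (adjusted p = 0.924) and for Nr1d1 0.23 ± 0.24 (adjusted p = 0.782). The Per1 interval does not reach differences between the ventricles of more than 0.53 in either direction. Since the choice of Per1 favoured such a result, nothing is concluded from its interval or p-value. Per3, which passed in the RV alone, had a difference of -0.46 ± 0.24 (adjusted p = 0.525), and Cry2, with the smallest p of the members, -0.29 ± 0.13 (unadjusted p = 0.0466, adjusted p = 0.445), so neither was shown to differ between ventricles. No member passed without nPAB mice 6 and 7 either.

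Ratios within a library do not depend on its scaling and set beside Per1 members whose phase is known in the adult heart. Their phase at this age was not measured. They are given as values, with no test, since Per1 and the contrast chose the set. Arntl and Nr1d1 transcripts run in about opposite phase in the adult heart. Their log2 ratio was -1.62 ± 0.32 in RV nPAB and -0.66 ± 0.76 in RV Sham (SD, n = 6 and 5), and -1.35 ± 0.52 in LV nPAB and -0.78 ± 0.35 in LV Sham. The mean was lower after banding in both ventricles, but the groups overlapped, with 2 of 6 nPAB libraries below every Sham library in the RV and 3 of 6 in the LV. Sham mouse 12, with a ratio of -1.95 in the RV, was as low as the lowest nPAB libraries. Without it the difference in the RV was -1.29 in place of -0.96.

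The log2 ratio of Per1 to Nr1d1 was 0.34 ± 0.59 in RV nPAB and -0.95 ± 0.53 in RV Sham, and 0.47 ± 0.36 in LV nPAB and -1.24 ± 0.65 in LV Sham. By normalized count, Per1 was the lower of the pair in all 10 Sham libraries and the higher in every LV nPAB library. In RV nPAB mouse 11 the ratio was -0.66. Normalized counts are not corrected for length, and Per1 has 5631 exonic bases against 3077 for Nr1d1. Per kilobase of exon and M reads, Nr1d1 averaged above Per1 after banding too, at 8.87 and 6.59 in LV nPAB and 8.37 and 5.96 in RV nPAB. The log2 ratio of Per1 to Per2 was 0.34 ± 0.55 in RV nPAB and -0.34 ± 0.43 in RV Sham, and 0.75 ± 0.41 in LV nPAB and 0.00 ± 0.64 in LV Sham, with overlap in both ventricles.

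A further pair of ratios was added after the values were seen, because genes of 1 family parted. The log2 ratio of Per2 to Per3 was 0.65 ± 0.41 in RV nPAB and -1.19 ± 0.62 in RV Sham, and 0.23 ± 0.39 in LV nPAB and -1.26 ± 0.72 in LV Sham. The groups did not overlap in either ventricle. The log2 ratio of Nr1d1 to Nr1d2 was -0.71 ± 0.40 in RV nPAB and -1.61 ± 0.36 in RV Sham, and -0.86 ± 0.33 in LV nPAB and -1.36 ± 0.57 in LV Sham, with 5 of 6 nPAB libraries above every Sham library in the RV and 3 of 6 in the LV. In the RV, Per2 passed as higher and Per3 as lower, and Nr1d1 passed as higher while Nr1d2 did not pass.

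**Figure D3:**
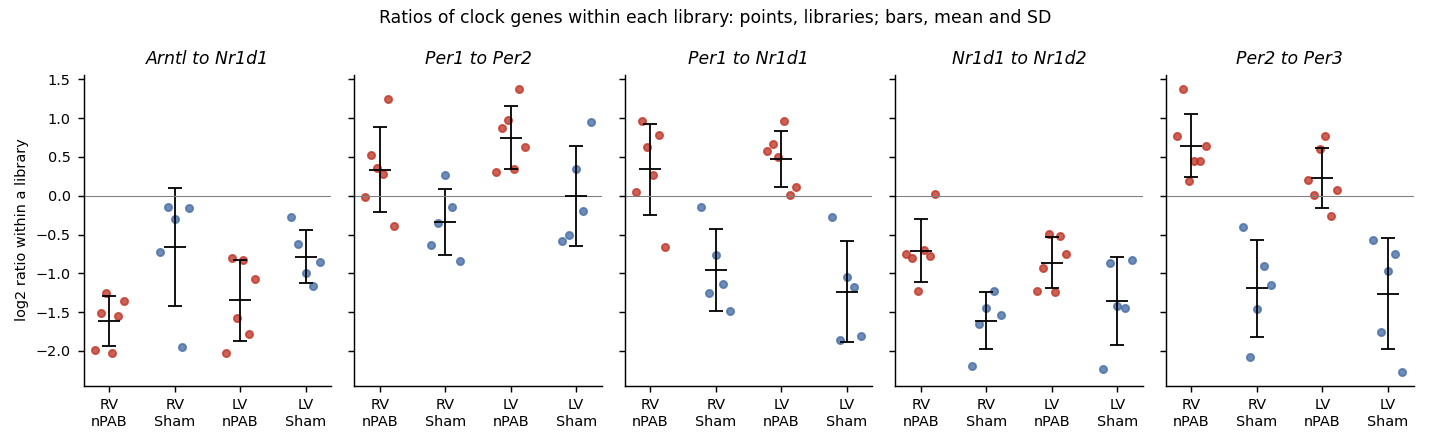
Log2 ratios of 5 pairs of clock genes within each library (vertical axis), with points for libraries and bars for the mean and SD, in RV nPAB, RV Sham, LV nPAB and LV Sham. The Per2 to Per3 and Nr1d1 to Nr1d2 ratios were added after the values were seen, because the genes of each pair parted. Per2 to Per3 separates nPAB from Sham libraries in both ventricles, which that choice favoured. Arntl to Nr1d1 overlaps, with Sham mouse 12 at -1.95 in the RV.

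The order of levels is given per length, in reads per kilobase of exon per M reads in genes (RPKM). The place of Per1 in it restates, on another scale, the difference that chose the set, and is no further support. Clock was the highest in all 4 groups, at 9.70 ± 1.11 in RV nPAB, 10.9 ± 0.64 in RV Sham, 9.22 ± 0.60 in LV nPAB and 11.2 ± 1.16 in LV Sham (SD). Per1 was the fourth of the 10 in RV nPAB, at 5.96 ± 1.62 RPKM, and the ninth in RV Sham, at 1.64 ± 0.55. It was the fourth in LV nPAB, at 6.59 ± 1.02, and the last in LV Sham, at 1.57 ± 0.44. Arntl was last or next to last in every group, at 1.12 to 1.59 RPKM.

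Most neighbours in that order were not separated by their spread. In RV nPAB the order after Clock was Nr1d1, Nr1d2, Per1, Per2, Cry1, Npas2, Cry2, Per3 and Arntl. Neighbours there had overlapping ranges except Npas2, at 2.58 RPKM or more, and Cry2, at 2.51 or less. In RV Sham the order was Clock, Nr1d2, Nr1d1, Cry1, Npas2, Cry2, Per3, Per2, Per1 and Arntl, with gaps between Nr1d2 (8.39 or more) and Nr1d1 (7.64 or less) and between Npas2 (4.29 or more) and Cry2 (3.64 or less). In LV nPAB the ranges of all neighbours overlapped, and in LV Sham the one gap was again between Npas2 (3.86 or more) and Cry2 (3.35 or less).

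Mice differed among themselves within a group. By the numbers in the titles, the nPAB mouse with the highest level was the same in the RV and the LV for 2 of the 10 genes. That with the lowest was the same for 5, among them Cry2 through mouse 6, whose libraries were of different sexes. In the Sham group these counts were 6 and 3. The Sham mice that held the highest level in both ventricles were mouse 9 for Per1, Per2, Cry2 and Nr1d2, and mouse 10 for Arntl and Per3. Sham mouse 9 also had the lowest Nr1d1 in both ventricles and Sham mouse 12 the lowest Arntl. In the nPAB group mouse 11 had the highest Arntl and Clock and the lowest Per1 in both ventricles, and mouse 10 the lowest Clock and Per2.

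The deviations of each mouse from its group mean were correlated between LV and RV over the 11 mice, a measure that does not use the difference between nPAB and Sham. For Per1 Pearson's r was 0.76 (permutation p = 0.0150, adjusted p = 0.137 over 10 genes) and Spearman's rho 0.73 (permutation p = 0.0243, adjusted p = 0.121). For Cry2 r was 0.70 (permutation p = 0.0300, adjusted p = 0.137), for Per2 0.68 (permutation p = 0.0982, adjusted p = 0.245) and for Arntl 0.62 (permutation p = 0.0410, adjusted p = 0.137). Without the 2 mice farthest from the median, r was 0.69 for Per1, 0.58 for Per2, 0.41 for Cry2 and 0.36 for Arntl, so the Cry2 and Arntl values rest in part on those mice. Without nPAB mice 6 and 7, r over the other 9 mice was 0.85 for Per1 (permutation p = 0.0061, adjusted p = 0.0614), 0.72 for Per2, 0.67 for Arntl and 0.63 for Cry2. No gene passed after adjustment in either set of mice, and 1 did without nPAB mouse 5 (lowest adjusted p = 0.0441). For Nr1d1 r was 0.01 and for Cry1 -0.06.

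**Figure D4:**
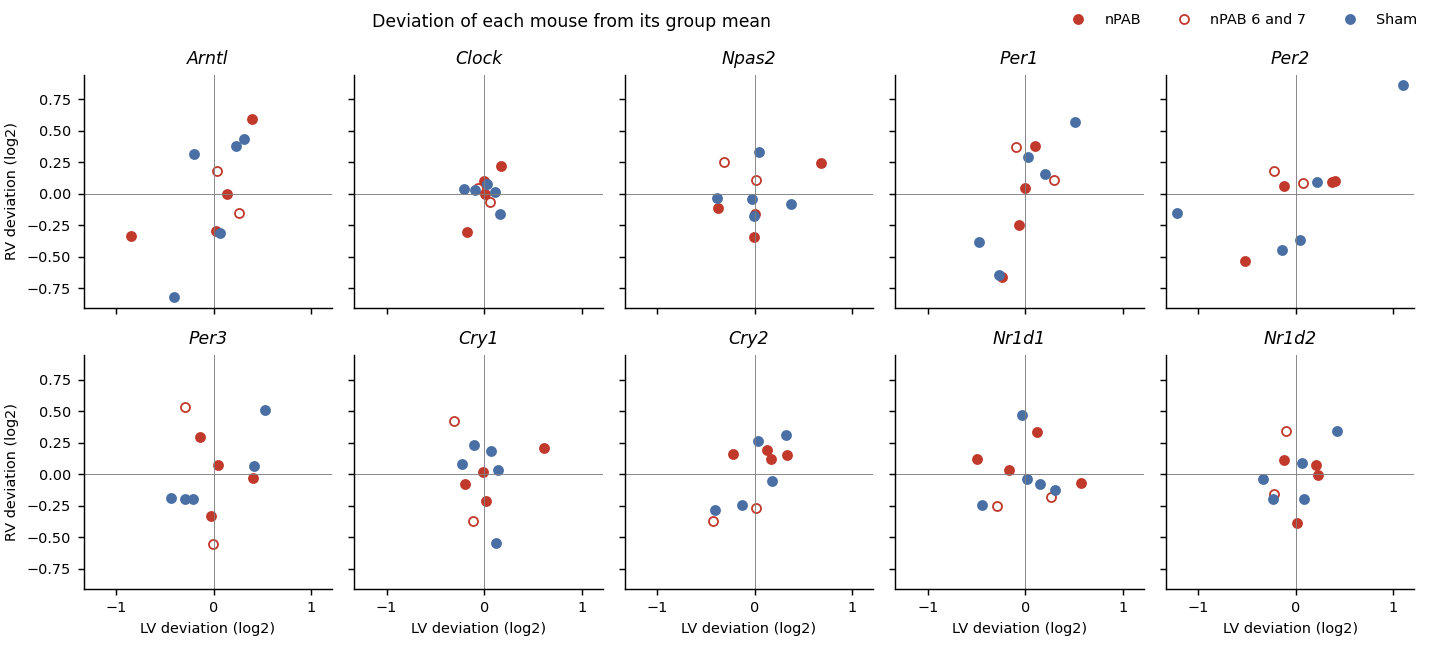
Deviation of each mouse from the mean of its group, log2(value + 1), in the LV (horizontal axes) and in the RV (vertical axes), for each core loop gene; open circles are nPAB mice 6 and 7, whose libraries were of different sexes. Per1 (r = 0.76), Cry2 (0.70), Per2 (0.68) and Arntl (0.62) run upward, while Nr1d1 (0.01) and Cry1 (-0.06) do not.

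Within a ventricle, Arntl was set against Nr1d1, Per1, Per2, Npas2 and Cry1 over the same deviations, 10 relations in all. None passed (permutation tests, lowest adjusted p 0.371 for Pearson's r and 0.261 for Spearman's rho). By Pearson's r over all 11 libraries the strongest were with Npas2 in the RV (r = 0.56, rho = 0.65, permutation p = 0.0742 and 0.0394) and with Per1 in the RV (r = -0.63, rho = -0.59, permutation p = 0.0688 and 0.0828). Without the 2 libraries farthest from the median they were 0.55 and -0.52. With Per2 in the RV, rho was -0.63 (permutation p = 0.0522), and r was -0.45 over all 11 libraries and -0.65 without the 2 farthest. With Nr1d1, its repressor, Arntl had r = -0.25 in the RV and 0.24 in the LV. In the LV, r with Per1 was -0.27 over all 11 libraries and -0.71 without the 2 farthest, and r with Npas2 was 0.16 and 0.82, so the LV values depend on those 2 libraries.

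The genes whose deviations were most like those of Per1, ranked by the lower of the RV and LV correlations among 9794 genes whose mean was 50 or more, were Ap2a2 (r = 0.80 in the RV and 0.75 in the LV), Rpl10a-ps1 (0.70 and 0.71), Socs4 (0.70 and 0.70), Stxbp4 (0.70 and 0.89) and Taf10 (0.66 and 0.75), over 11 libraries a ventricle. Of the other members Nr1d2 came nearest, at rank 18 (0.58 and 0.72), and Per2 stood at rank 512 (0.31 and 0.52). Among those most like Arntl were Gucy1b1 (0.84 and 0.77), Hspb8 (0.76 and 0.70), Ankrd52 (0.81 and 0.68) and Sidt2 (0.69 and 0.68), and its nearest member was Npas2 at rank 1294. These are descriptions across libraries that share depth and animal, with no test.

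Beyond the core loop, 20 of 23 other clock genes were tested. In the RV 5 were higher and 3 lower, against 11.1% and 10.8% of all genes tested, and in the LV 4 were higher and 1 lower, against 4.76% and 4.55%. Of the transcriptional regulators, Bhlhe40, which encodes the E-box repressor DEC1, rose most, with 697 ± 161 normalized counts in RV nPAB and 216 ± 47.9 in RV Sham (SD), and 569 ± 138 in LV nPAB and 233 ± 25.2 in LV Sham. Its log2 differences were 1.69 (limma adjusted p = 2.42e-06) in the RV and 1.26 (adjusted p = 5.03e-05) in the LV. Bhlhe41, its relative DEC2, rose in the RV by 0.62 (adjusted p = 2.60e-04), with 0.02 in the LV (adjusted p = 0.929). The difference between ventricles, 0.59, did not pass (adjusted p = 0.0705).

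The D-box regulators and Rora gave a mixed picture. Nfil3, the D-box repressor, fell by 0.72 in the RV (limma adjusted p = 0.0046) and was at -0.75 in the LV (adjusted p = 0.0867, and 0.0252 with DESeq2). Hlf, a D-box activator, fell by 0.57 in the RV (adjusted p = 0.0127) and was at 0.34 in the LV (adjusted p = 0.372), a difference between ventricles of -0.91 that did not pass (adjusted p = 0.271). Dbp, a direct E-box target whose level follows Nr1d1 in a running clock, averaged 46.5 ± 8.50 normalized counts in RV nPAB and 46.4 ± 19.7 in RV Sham, with a log2 difference of 0.10 (adjusted p = 0.843), and 50.4 ± 9.91 in LV nPAB and 35.2 ± 16.6 in LV Sham (0.62, adjusted p = 0.220). Dbp shares 539 exonic bases with Sphk2 on the other strand. Rora, which encodes an activator at ROR elements, was at -0.16 (adjusted p = 0.491) in the RV and -0.08 (adjusted p = 0.784) in the LV. Ciart, a repressor of ARNTL and CLOCK, averaged under 10 counts in each group and was not tested.

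Of the genes that act on clock proteins, Usp2, a deubiquitinase with a circadian transcript, rose by 0.66 in the RV (limma adjusted p = 8.47e-04) and by 0.84 in the LV (adjusted p = 7.31e-04). Fbxw11, which encodes a ubiquitin ligase subunit that targets PER proteins, rose by 0.29 in the RV (adjusted p = 0.0254), a call lost without Sham mouse 10 or 13 (adjusted p = 0.0619 or 0.0748), without nPAB mice 6 and 7 (0.0584) and with no filter on low values (0.0784). Csnk1e (0.20 in the RV), Btrc (-0.57 in the LV) and Timeless (-0.67 in the LV) did not pass, although Btrc passed without Sham mouse 13 (adjusted p = 0.0325) and with DESeq2 (adjusted p = 0.0271). Of 7 tested genes in this group, 2 rose in the RV, where 11.1% of all genes tested were higher, and 1 rose in the LV, where 4.76% were. Nothing is read from counts this small.

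Among clock outputs Noct, which encodes the rhythmic enzyme nocturnin, had the largest difference, with 719.9 ± 215 normalized counts in RV nPAB and 182 ± 26.4 in RV Sham (SD), and 822 ± 203 in LV nPAB and 177 ± 16.9 in LV Sham. It rose by 1.93 (limma adjusted p = 4.46e-06) in the RV and by 2.18 (adjusted p = 2.23e-07) in the LV, sizes close to those of Per1. Wee1, a cell cycle kinase with E-boxes, rose by 0.85 in the LV (adjusted p = 9.07e-04) and was at 0.43 in the RV (adjusted p = 0.0715, 0.0209 without nPAB mouse 11 and 0.0493 with DESeq2). Klf10 fell by 0.47 in the RV (adjusted p = 0.0090) and by 0.57 in the LV (adjusted p = 0.0175; 0.0501 without Sham mouse 9, 0.0641 without nPAB mice 6 and 7 and 0.0694 without the variance trend). Por was at -0.19 in the RV and -0.39 in the LV and did not pass.

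Since Per1 answers to signals from outside the clock, the genes of those signals are given beside it. Of 7 glucocorticoid-induced genes, 5 rose in the RV and 6 in the LV, with no fall, against the same 11.1% and 4.76% of all genes that were higher. Sgk1 rose by 1.62 in the RV (limma adjusted p = 1.84e-06) and 1.39 in the LV (adjusted p = 2.31e-06), Cebpd by 1.39 (adjusted p = 0.0018) and 1.58 (adjusted p = 2.49e-04), and Klf9 by 0.53 (adjusted p = 0.0035) and 0.71 (adjusted p = 1.14e-04). Of 7 cAMP-induced and immediate early genes, 5 passed as higher in the RV and 3 in the LV, and none passed as lower. Those that rose included Nr4a3 (2.79 in the RV and 3.11 in the LV), Nr4a1 (2.29 and 2.26) and Sik1 (1.77 and 1.35). Crem lay the other way without passing, at -0.13 in the RV (limma adjusted p = 0.547). In the LV it averaged 195 normalized counts in nPAB and 236 in Sham. The median log2 difference was 1.39 in the RV and 1.39 in the LV for the glucocorticoid-induced genes, and 1.77 and 1.35 for the cAMP-induced and immediate early genes. Both lists were chosen with the levels of some of their genes in these samples known, the comparisons share their libraries with Per1, and the part of either signal in the Per1 level was not tested.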

How the data were processed

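Per the labels' protocols, the RNA came from a Qiagen RNeasy Plus Mini kit and the libraries from a Revelo RNA-Seq High Sensitivity kit. Tools named in the submitters' processing notes are featureCounts, cutadapt and DESeq2, with the build mm10; aligner and versions: not given in the sources used here. Per the labels, the authors deposited DESeq2-normalized values, 1 table per ventricle, a signal at or above 0 made by dividing each gene's count by a size factor and called normalized count here. The tables were normalized separately, so levels are compared within a table, and ventricles only as differences within a mouse. In each table the names of the header line were read in order, passing over its empty cells. Within 0.001, 100% of values were multiples of 1 read's worth, which gave whole reads and the depth of each library. Whether counting used strand is not stated.

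The members, the gene lists and the tests were chosen with earlier results of these data known. Symbols came from GENCODE for 49411 of 49670 RV genes and 49412 of 49671 LV genes. Two-sided tests were run in R 4.3.3 with limma 3.58.1 (lmFit and a robust eBayes with trend). They ran on log2(value + 1), a scale that understates changes of low genes, and on genes averaging 10 or more. The Benjamini-Hochberg adjustment covered all genes tested, with a threshold of 0.05. On the whole reads, edgeR 4.0.16 (quasi-likelihood) called 2997 RV and 1243 LV genes and DESeq2 1.42.0 called 3354 and 1680. Fits were tested on simulated data. Correlations used deviations from group means and 100000 permutations within groups.

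The members were named in full, and Per1 was left out of counts of members that passed between nPAB and Sham. Of each list of other clock genes up to 4 with the smallest p in each ventricle were named, besides Dbp, Ciart, Rora, Bhlhe40 and Nfil3, and up to 3 of each signal list. Crem was named besides, as a gene that lay the other way from its list. Some genes of these lists or named by these rules are not reported here and are left out of the counts. LV and RV libraries were paired by the number in the titles, which was taken to mark the animal. For nPAB mice 6 and 7 the sexes of the libraries go against that. As a check, deviations from group means were correlated between same-numbered libraries: r was 0.0559 for nPAB mouse 7, 0.171 for nPAB mouse 6 and between 0.133 and 0.384 for the other 9 mice. All pairs of libraries within a group differed by more than sampling noise, with chi-square per degree of freedom at 7.46 or above. The alternatives concerned the count tool, block, scaling, filter, pseudocount and variance model, besides leaving out each mouse or nPAB mice 6 and 7. Figures were drawn with matplotlib 3.10.9.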

Additional observations from a re-analysis of the deposited data

Results flagged for a closer look

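Each member was examined in each of the 4 groups, 40 sets of values in all, for a library whose gap to its nearest neighbour took up more of the group's range than Dixon's critical value at 95% allows. Chance alone gives about 1 such set in 20, and 6 were found. Per2 was 163 normalized counts in RV nPAB mouse 10, against 247 to 268 in the other 5 RV nPAB libraries. In LV nPAB, mouse 11 stood high for both Npas2, at 229 against 109 to 143, and Cry1, at 218 against 115 to 144. In RV Sham, Npas2 was 252 in mouse 10, against 176 to 194, Nr1d1 was 206 in mouse 12, against 125 to 144, and Clock was 1155 in mouse 9, against 1306 to 1365. The libraries of nPAB mouse 10 and Sham mouse 12 that stood apart are those through which the RV groups overlapped for Per2 and Nr1d1.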

How the results depend on the processing

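Of 21 alternatives per comparison, RV calls of Per2 and Nr1d1 held in 20 and those of Npas2 and Per3 in 12; no member passed for RV minus LV. Of the 9 members other than Per1, those called in the RV numbered 2 with no filter on low values, and 2 to 4 with 1 mouse left out. In the LV they numbered 2 with DESeq2, 0 without nPAB mice 6 and 7, and 1 to 2 with 1 mouse left out. Genes called in the RV numbered 2399 to 3015 with 1 mouse left out. LV genes called numbered 739 without the variance trend, 668 without nPAB mice 6 and 7 and 841 to 1290 with 1 mouse left out. Genes called for RV minus LV numbered 251 with DESeq2, 137 with edgeR, 35 at a mean of at least 50, 0 at pseudocount 0.5, 29 without nPAB mice 6 and 7, and 0 to 20 with 1 mouse left out. The nPAB minus Sham difference of the Arntl to Nr1d1 log2 ratio in the RV ran from -1.29 to -0.83 with 1 mouse left out, and 0 to 1 members covaried between ventricles. The cause of these shifts was not tested.

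With the replicate block, nPAB and Sham share only numbers 10 and 11, which mark different animals, and called were 262 RV and 29 LV genes and 0 RV and 0 LV members other than Per1. With no replicate block, RV minus LV gave 5 genes. Some differences that had not passed changed sign. With the replicate block, Arntl, Nr1d2 and Rora turned to 0.075, 0.19 and 0.039 in the LV, and Rora to 0.14 in the RV. Dbp in the RV was -0.0011 with edgeR, and without nPAB mice 6 and 7 Nr1d2 in the LV was 0.021 and Npas2 for RV minus LV -0.063. With 1 mouse left out the ranges were -0.11 to 0.25 for Dbp in the RV; in the LV -0.23 to 0.038 for Arntl, -0.21 to 0.030 for Per3, -0.082 to 0.11 for Cry2, -0.14 to 0.045 for Nr1d2 and -0.20 to 0.014 for Rora; and for RV minus LV -0.0085 to 0.19 for Npas2, -0.21 to 0.16 for Per2 and -0.25 to 0.0032 for Cry1. Depth limits genes of few reads, such as Arntl and Dbp, and intervals cover the spread between these mice only.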
